A study of Mus musculus with 6 samples.

Results

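The 37 genes described here encode enzymes and regulators of amino acid metabolism, and they were read from an RNA-Seq table of 19445 gene loci by matching each gene symbol to the symbol column of the table. Of these, 20 genes break down the branched-chain amino acids leucine, isoleucine and valine, and 17 genes act on glutamate, glutamine, alanine, aspartate, proline, ornithine, arginine, serine, glycine and asparagine. Each of the 37 symbols had 1 row in the table. The gene list was set by function and not by the measured values, but it was chosen with earlier results of these data known.

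RNA was taken from inguinal white adipose tissue (iWAT), the subcutaneous fat depot of the groin, of 3 Hlx transgenic mice and 3 wild-type littermates. All 6 mice were 12 weeks old and labelled male. The transgene expressed the homeobox transcription factor Hlx from the aP2 (Fabp4) promoter, which is active in adipocytes, while the wild-type littermates carried no transgene. The sources do not give the founder line of these 3 transgenic mice or state any treatment, and each value is the level of RNA in the whole depot of 1 mouse.

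Branched-chain amino acids are first transaminated and then decarboxylated by the mitochondrial branched-chain ketoacid dehydrogenase, the committed step, which is switched off when a kinase phosphorylates it and switched on by a phosphatase. The products of leucine are acetyl-CoA and acetoacetate, whereas valine and part of isoleucine pass through propionyl-CoA to succinyl-CoA, an intermediate of the citric acid cycle. White and brown fat both carry out this breakdown, and adipocytes can use the carbon for lipid synthesis or for oxidation.

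Values are given as FPKM, a read density corrected for transcript length and library size, so that levels can be compared between genes. Differences are given as log2 fold changes (transgenic minus wild type) of log2(FPKM + 1) with their standard error, a scale which understates the change of genes at low level. They were tested with limma across the 11692 loci whose mean FPKM was above 1 in at least 1 genotype, and a gene was called at a Benjamini-Hochberg adjusted p under 0.05. The study's methods give each genotype 3 mice and 3 libraries, so the p-values measure the spread between mice. In RNA from whole tissue, fewer cells of a type and less RNA per cell cannot be told apart.

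The libraries were checked first. Hlx measured 109.7, 79.6 and 99.5 FPKM in transgenic mice 1, 2 and 3, and 6.88, 7.35 and 8.14 FPKM in wild-type mice 1, 2 and 3 (log2 fold change 3.51 ± 0.13, adjusted p = 0.000106). FPKM totals ranged from 466059 to 542096 per library. The table holds no read counts, so depth is unknown. A rough estimate of depth relative to wild-type mouse 3, from the step between low FPKM values, ranged from 0.69 to 1.41, but only 12.5% to 15.3% of the low values of the other 5 libraries lay on such a step. Adipocyte markers such as Fabp4, Plin1 and Adipoq were abundant in every library, and 2 of the 7 measured, Adipoq and Cfd, were called lower. Xist, the RNA of the inactive X chromosome, measured 20.2 to 33.6 FPKM in all 6 libraries, and all 28 Y-linked loci in the table were listed at 0, which goes against the label male but does not separate the genotypes. The summed FPKM of 8 macrophage markers was 358 to 506 in transgenic and 749 to 956 in wild-type mice, with 5 of the 8 genes called lower, and that of 9 skeletal muscle markers was 93.5, 670.2 and 133 in transgenic and 7.64, 141 and 39.3 in wild-type mice, with 0 of 9 called by limma and 2 of 9 at an unadjusted p under 0.05. Of the lymphocyte markers, 1 of 8 was called lower and 4 of 8 had an unadjusted p under 0.05, with all 8 log2 fold changes below 0. Of the endothelial markers, 2 of 6 were called higher and 1 lower, and 4 of 6 had an unadjusted p under 0.05. The epithelial and fibroblast lists had 0 genes called by limma, although 2 genes of each had an unadjusted p under 0.05. Beside these counts, 11.6% of all loci tested were called higher and 7.03% lower. The part of other cell types in the results that follow was not tested.

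Genes of branched-chain breakdown were called higher in the transgenic depot more often than lower, and the other amino acid genes were called in both directions. Of the 37 genes, 36 passed the filter on low values, the exception being Bcat1. Of the 19 branched-chain genes tested, 8 were called higher, 1 was called lower and 10 were not called. Of the 17 other genes tested, 2 were called higher, 5 were called lower and 10 were not called. Across all loci tested, 11.6% were called higher, 7.03% were called lower and 18.6% were called in either direction. The median log2 fold change was 0.42 for the branched-chain genes and -0.11 for the other genes, beside -0.01 for all loci tested. The 3 transgenic values were all above the 3 wild-type values for 13 of the 20 branched-chain genes and all below them for 1, whereas the corresponding counts for the 17 other genes were 3 and 6. Over all loci tested, 22.8% had the transgenic values all above and 20.1% had them all below the wild-type values. The plot of log2 fold changes shows the genes ordered by role.

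**Figure D1:**
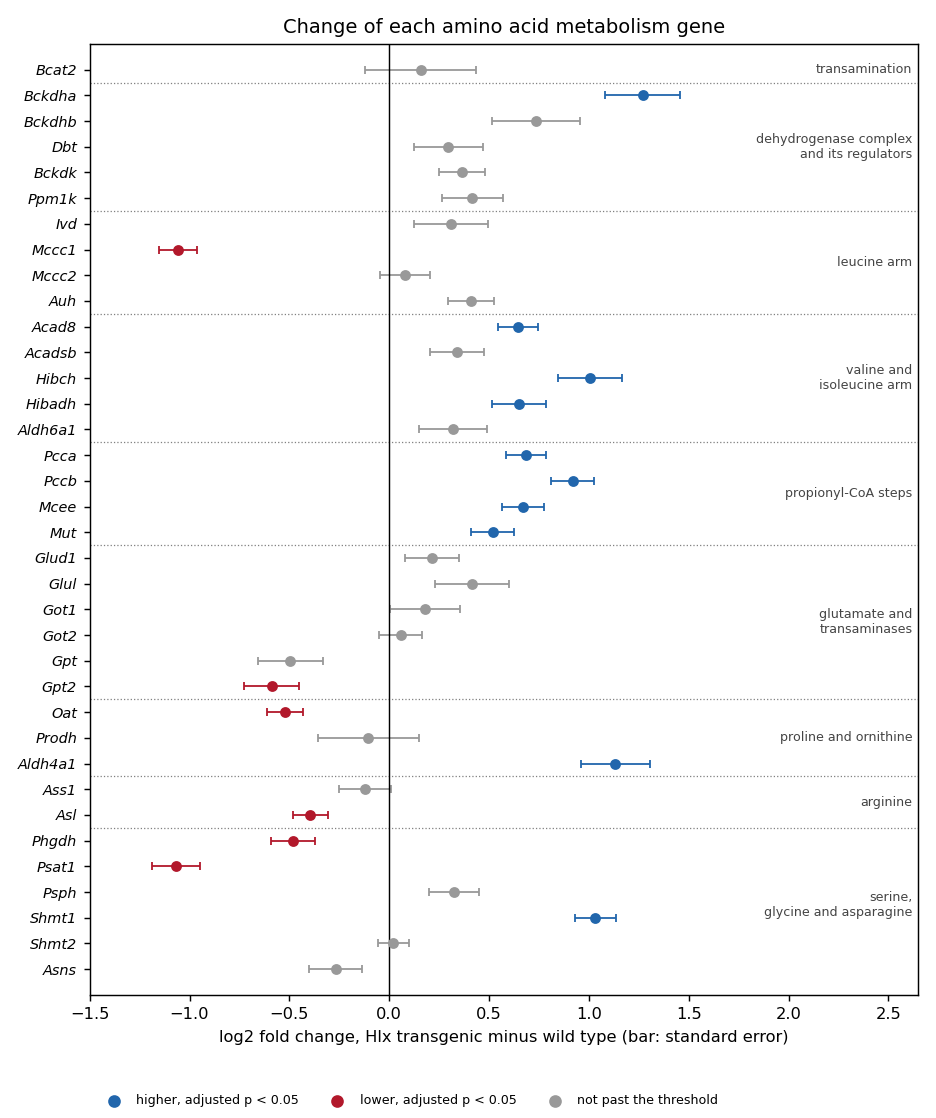
Log2 fold change of log2(FPKM + 1), transgenic minus wild type, for the 36 genes tested, grouped by role, with bars for the standard error. Points are blue for genes called higher and red for genes called lower at an adjusted p under 0.05, and grey for genes not called. Bckdha has the highest value (1.27) and Psat1 (-1.07) and Mccc1 (-1.06) the lowest, and all 4 genes of the propionyl-CoA steps are called higher.

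Summed over the 20 branched-chain genes, the transcript level was 2984, 2625 and 2615 FPKM in transgenic mice 1 to 3 and 2271, 1633 and 1711 FPKM in wild-type mice 1 to 3. The groups did not overlap, and the summed mean was 2741 ± 210.5 FPKM for the transgenic mice beside 1872 ± 348 FPKM for the wild-type mice (SD, n = 3). An exact permutation test of 3 against 3 mice cannot give a two-sided p below 0.1. Wild-type mouse 1 was the highest of the wild-type mice for 18 of the 20 branched-chain genes and for 29 of all 37 genes, against 38.8% of all loci tested. Calls that changed without this mouse are given with the genes concerned. The plot of branched-chain levels by mouse shows its position.

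**Figure D2:**
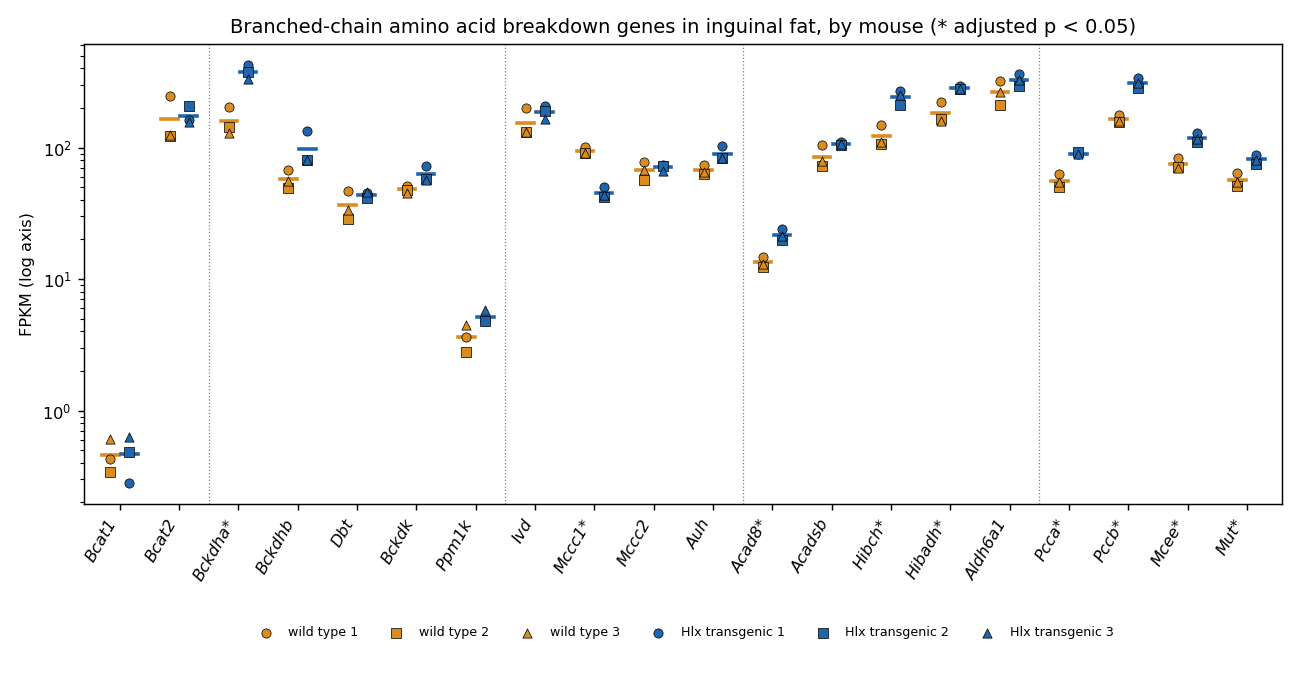
FPKM (log axis) of the 20 branched-chain genes in each mouse, with wild-type mice in orange, transgenic mice in blue and a bar for the group mean. Bckdha, Hibch and Pccb have all transgenic mice above all wild-type mice, Mccc1 has them all below, and Bcat1 is under 1 FPKM in every mouse.

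The first reaction is carried out by the branched-chain aminotransferases, Bcat1 in the cytosol and Bcat2 in mitochondria. Bcat2 was by far the more abundant transcript, at 162, 207 and 156 FPKM in transgenic mice 1 to 3 and 247, 122 and 125 FPKM in wild-type mice 1 to 3. Bcat1 stayed between 0.281 and 0.626 FPKM in the 6 mice and was not tested. The groups overlapped for both genes. The log2 fold change of Bcat2 was 0.16 ± 0.28 (adjusted p = 0.71), and it was 0.49 without wild-type mouse 1 (adjusted p = 0.0794), the mouse with the highest level. Its sign turned to -0.11 under quantile normalization (adjusted p = 0.791) and to -0.02 without wild-type mouse 2. About 16.0% of the exon bases of Bcat2 are shared with an antisense transcript, from which its reads cannot be told apart because the library kit does not mark the strand.

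The dehydrogenase complex that follows is built from the alpha and beta chains of its decarboxylase (Bckdha and Bckdhb), the transacylase Dbt and the shared dihydrolipoamide dehydrogenase. Bckdha had the highest log2 fold change of the 36 genes tested, although under quantile normalization its value of 0.97 lay below those of Aldh4a1 (1.04) and Shmt1 (1.04). Its level was 425, 373 and 335 FPKM in transgenic mice 1 to 3 and 203, 144 and 128 FPKM in wild-type mice 1 to 3. Every transgenic mouse was above every wild-type mouse, and the mean of the group was 2.38-fold higher (log2 fold change 1.27 ± 0.19, adjusted p = 0.0055). Bckdha lies on the minus strand at chr7:25629946-25658981 (GRCm38), and 61.7% of its exon bases are shared with B3gnt8 on the opposite strand. Without strand, reads from the shared bases cannot be told apart. B3gnt8 was listed between 3.15 and 5.05 FPKM in the 6 mice (log2 fold change -0.33, adjusted p = 0.0736), a value that depends on the same assignment of reads, and the part of the overlap in the Bckdha values was not tested.

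The partner chain Bckdhb was measured at 134, 80.1 and 79.9 FPKM in transgenic mice 1 to 3 and at 67.2, 49.0 and 55.3 FPKM in wild-type mice 1 to 3. The groups did not overlap, yet the difference missed the threshold (log2 fold change 0.73 ± 0.22, adjusted p = 0.0593), with transgenic mouse 1 far above the other transgenic mice. Dbt, which carries the lipoyl group of the complex, differed by 0.30 ± 0.17 on the log2 scale (adjusted p = 0.256), and it was called higher without wild-type mouse 1 (0.49, adjusted p = 0.0374).

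The kinase Bckdk, which inactivates the complex, was at 72.5, 57.9 and 57.1 FPKM in transgenic and 51.5, 47.9 and 44.9 FPKM in wild-type mice 1 to 3. Its groups did not overlap and its difference missed the threshold (log2 fold change 0.37 ± 0.11, adjusted p = 0.0662). The phosphatase Ppm1k, which activates the complex, was an order of magnitude lower, at 4.77, 4.81 and 5.84 FPKM in transgenic and 3.64, 2.78 and 4.51 FPKM in wild-type mice 1 to 3 (log2 fold change 0.42 ± 0.15, adjusted p = 0.1). For the complex and its regulators together, 1 of 5 genes was called, beside 18.6% of all loci tested.

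The leucine arm was the only branched-chain step with a called fall. Mccc1 encodes the biotin-carrying alpha chain of methylcrotonyl-CoA carboxylase, and it measured 50.0, 41.9 and 43.4 FPKM in transgenic mice 1 to 3 and 101, 91.6 and 91.5 FPKM in wild-type mice 1 to 3. All transgenic values were below all wild-type values, and the mean of transgenic mice was 0.476 times that of wild-type mice (log2 fold change -1.06 ± 0.10, adjusted p = 0.00104). Mccc2 encodes the beta chain of the same carboxylase, and it measured 73.5, 72.8 and 66.4 FPKM in transgenic and 78.2, 56.8 and 67.4 FPKM in wild-type mice 1 to 3. The groups overlapped, and the log2 fold change was 0.08 ± 0.12 (adjusted p = 0.673). It was 0.19 without wild-type mouse 1 (adjusted p = 0.281) and turned to -0.03 under quantile normalization (adjusted p = 0.884). The alpha chain was thus the more abundant transcript in wild-type mice and the less abundant in transgenic mice, in each of the 6 mice. Mccc1 (chr3:35959312-36000678, minus strand, GRCm38) shares 5.6% of its exon bases with antisense or pseudogene transcripts on the opposite strand, and Mccc2 (chr13:99948530-100015639, minus strand) shares 0%. The deposited locus of Mccc1 is shared with the gene name Ccdc144b, which was at 0.341 FPKM or less in the 6 mice.

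Mccc1 and Mccc2 encode chains of 1 enzyme, and the 250 bases before the RefSeq start of each gene (GRCm38.p6) are shown to set their promoters side by side, for Mccc1 at chr3:36000679-36000928 and for Mccc2 at chr13:100015640-100015889, both on the minus strand. Capitals mark an E-box (CACGTG), which starts 9 bases before the start of Mccc2.
Mccc1: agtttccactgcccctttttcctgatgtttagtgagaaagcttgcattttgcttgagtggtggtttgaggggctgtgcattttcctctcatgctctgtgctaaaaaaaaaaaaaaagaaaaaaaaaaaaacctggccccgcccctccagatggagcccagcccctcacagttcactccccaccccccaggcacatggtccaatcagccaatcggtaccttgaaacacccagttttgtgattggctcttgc
Mccc2: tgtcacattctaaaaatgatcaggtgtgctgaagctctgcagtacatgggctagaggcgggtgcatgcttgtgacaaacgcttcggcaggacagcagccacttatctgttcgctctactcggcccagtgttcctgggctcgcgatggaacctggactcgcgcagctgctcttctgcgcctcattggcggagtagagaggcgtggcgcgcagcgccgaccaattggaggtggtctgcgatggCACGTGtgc

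The other enzymes of the leucine arm were not called. Ivd, the isovaleryl-CoA dehydrogenase, differed by 0.31 ± 0.18 on the log2 scale (adjusted p = 0.268) with overlapping groups, and by 0.51 without wild-type mouse 1 (adjusted p = 0.0509). Auh, the hydratase that acts after the carboxylase, had transgenic levels of 103, 83.5 and 83.5 FPKM and wild-type levels of 74.3, 62.8 and 65.0 FPKM that did not overlap, and it lay at the threshold (log2 fold change 0.41 ± 0.11, adjusted p = 0.0502). Auh was called higher under 5 of 15 alternative settings of the fit.

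In the valine and isoleucine arm, 3 of 5 genes were called higher and none was called lower, beside 11.6% and 7.03% of all loci tested. Acad8, the isobutyryl-CoA dehydrogenase of valine breakdown, measured 23.8, 19.8 and 21.3 FPKM in transgenic and 14.8, 12.5 and 13.1 FPKM in wild-type mice 1 to 3 (log2 fold change 0.64 ± 0.10, adjusted p = 0.00695). Hibch releases free hydroxyisobutyrate from its CoA ester, and it measured 269, 211 and 252 FPKM in transgenic and 149.8, 106 and 110.0 FPKM in wild-type mice 1 to 3. Its mean was 2-fold higher in transgenic mice (log2 fold change 1.00 ± 0.16, adjusted p = 0.00785). Hibadh, which oxidizes that hydroxyisobutyrate, measured 293, 279 and 278 FPKM in transgenic and 220.4, 166 and 159.8 FPKM in wild-type mice 1 to 3 (log2 fold change 0.65 ± 0.14, adjusted p = 0.0199). The transgenic mice were above the wild-type mice for all 3 genes. The call of Hibadh was lost under quantile normalization (0.32 on the log2 scale, adjusted p = 0.0761), and without transgenic mouse 1 or 3 or wild-type mouse 2 or 3.

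The remaining members of this arm act on isoleucine and at the end of valine breakdown. Acadsb, the dehydrogenase for the short branched chain of isoleucine, differed by 0.34 ± 0.14 on the log2 scale (adjusted p = 0.125), which was called only without wild-type mouse 1 (0.49, adjusted p = 0.0231). Aldh6a1, the methylmalonate semialdehyde dehydrogenase, was the second most abundant of the 37 transcripts in wild-type mice, at 322, 211 and 263 FPKM, and it was at 364, 295 and 324 FPKM in transgenic mice 1 to 3. The groups overlapped (log2 fold change 0.32 ± 0.17, adjusted p = 0.222), and under quantile normalization the value was -0.01 (adjusted p = 0.953). Its deposited locus is shared with 3 neighbouring gene names, and 18.6% of its exon bases are shared with Bbof1.

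All 4 genes of the propionyl-CoA steps were called higher, and each had every transgenic mouse above every wild-type mouse. Over all loci tested, these shares were 11.6% and 22.8%. Pcca and Pccb encode the alpha and beta chains of propionyl-CoA carboxylase. Pcca measured 89.5, 92.2 and 88.7 FPKM in transgenic and 63.0, 50.0 and 54.9 FPKM in wild-type mice 1 to 3 (log2 fold change 0.68 ± 0.10, adjusted p = 0.00532). Pccb measured 339.6, 285 and 308 FPKM in transgenic and 177, 155 and 159 FPKM in wild-type mice 1 to 3 (log2 fold change 0.92 ± 0.11, adjusted p = 0.00234). Both chains of this carboxylase therefore rose.

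Mcee, the methylmalonyl-CoA epimerase, came next in the pathway with 129.8, 110.5 and 117 FPKM in transgenic and 83.1, 70.8 and 69.8 FPKM in wild-type mice 1 to 3 (log2 fold change 0.67 ± 0.11, adjusted p = 0.00718). Mut, the cobalamin-dependent mutase that yields succinyl-CoA, measured 87.1, 75.6 and 81.1 FPKM in transgenic and 64.2, 50.8 and 55.0 FPKM in wild-type mice 1 to 3 (log2 fold change 0.52 ± 0.11, adjusted p = 0.0199). Mut rose the least of the 4 genes, and its call was lost without transgenic mouse 1 or 3 or wild-type mouse 2 or 3, when its adjusted p reached 0.069.

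The summed level of the 4 propionyl-CoA genes was 601 ± 41.8 FPKM for transgenic beside 351 ± 31.6 FPKM for wild-type mice (SD, n = 3), and that of the 5 valine and isoleucine genes was 984 ± 75.5 and 669 ± 127 FPKM. The summed level of the 4 leucine genes was 394 ± 38.5 and 383 ± 60.4 FPKM, with overlapping groups. Whether the arms differed in response was not tested.

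A further 14 genes that serve branched-chain breakdown but lie outside the 37 were examined as a list, also chosen with earlier results known. Of these, 6 were called higher, 1 was called lower and 7 were not called, beside 11.6% called higher and 7.03% called lower over all loci tested. Dld, the dihydrolipoamide dehydrogenase shared by the branched-chain, pyruvate and oxoglutarate complexes, measured 468, 322 and 401 FPKM in transgenic and 163, 129.8 and 136 FPKM in wild-type mice 1 to 3 (log2 fold change 1.46 ± 0.16, adjusted p = 0.00204). Acat1, a mitochondrial thiolase, differed by 1.00 ± 0.15 on the log2 scale (adjusted p = 0.00682). Mmaa, which serves the cobalamin-dependent mutase, differed by 0.98 ± 0.12 (adjusted p = 0.0029). Slc3a2, the heavy chain of amino acid transporters of the plasma membrane, fell from 74.5, 76.8 and 59.7 FPKM in wild-type mice 1 to 3 to 31.8, 42.0 and 31.9 FPKM in transgenic mice 1 to 3 (log2 fold change -0.98 ± 0.15, adjusted p = 0.00568). Its leucine-transporting partner Slc7a5 was not called and lay between 2.15 and 4.63 FPKM in the 6 mice.

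Among the 17 other genes, the glutamate enzymes and transaminases had 1 of 6 genes called, in the lower direction, beside 18.6% of all loci tested called in either direction. Glul, the glutamine synthetase, was the most abundant of all 37 transcripts, at 746, 964 and 865 FPKM in transgenic and 805, 609 and 535 FPKM in wild-type mice 1 to 3. The groups overlapped (log2 fold change 0.41 ± 0.18, adjusted p = 0.155). Glud1, the glutamate dehydrogenase, differed by 0.21 ± 0.13 on the log2 scale (adjusted p = 0.294), and by 0.34 without wild-type mouse 1 (adjusted p = 0.0996).

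Of the alanine transaminases, 1 passed the test, in the lower direction. Gpt2, the mitochondrial form, measured 58.8, 52.5 and 47.8 FPKM in transgenic and 96.7, 74.8 and 70.7 FPKM in wild-type mice 1 to 3 (log2 fold change -0.59 ± 0.14, adjusted p = 0.0293). Gpt, the cytosolic form, measured 109, 84.8 and 71.2 FPKM in transgenic and 125, 133 and 111 FPKM in wild-type mice 1 to 3 (log2 fold change -0.49 ± 0.16, adjusted p = 0.0736). The groups did not overlap for either gene. The call of Gpt2 was lost without transgenic mouse 2 or 3 or wild-type mouse 1 or 2, with an adjusted p of up to 0.0946. Gpt was called lower under quantile normalization (-0.63 on the log2 scale, adjusted p = 0.022), with sample quality weights and without transgenic mouse 1.

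The aspartate transaminases were not called and were lower in level than the alanine transaminases. Got1, the cytosolic form, measured 7.83, 12.9 and 8.51 FPKM in transgenic and 7.51, 9.06 and 8.37 FPKM in wild-type mice 1 to 3 (log2 fold change 0.18 ± 0.17, adjusted p = 0.49). Transgenic mouse 2 was the highest, and without it the log2 fold change was -0.02. Got2, the mitochondrial form, measured 10.3, 13.2 and 13.3 FPKM in transgenic and 11.5, 12.0 and 11.5 FPKM in wild-type mice 1 to 3 (log2 fold change 0.06 ± 0.11, adjusted p = 0.724). Got2 values are uncertain, since 14.1% of the 100-base windows of its transcripts also occur in other annotated genes.

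**Figure D3:**
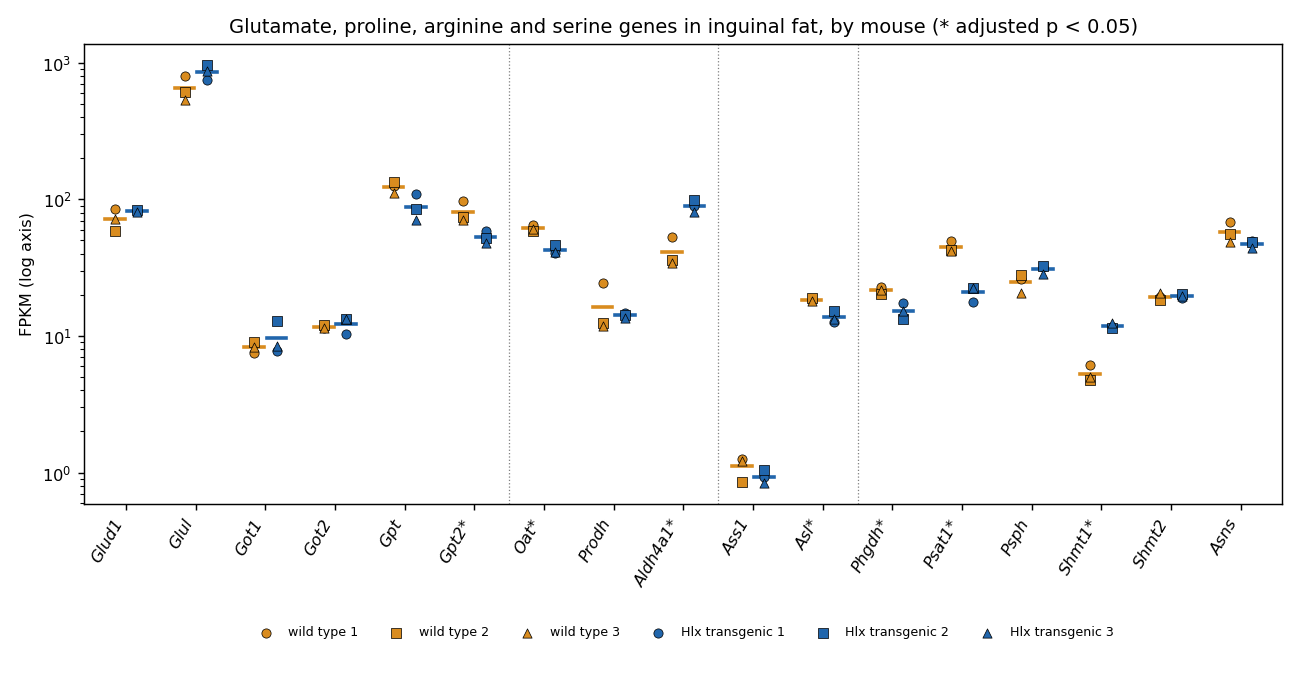
FPKM (log axis) of the 17 glutamate, proline, arginine and serine genes in each mouse, with wild-type mice in orange, transgenic mice in blue and a bar for the group mean. Aldh4a1 and Shmt1 have all transgenic mice above all wild-type mice, Oat and Psat1 have them all below, and Glul is the most abundant gene.

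Of the enzymes that lead into glutamate from proline and ornithine, Aldh4a1 was called higher, Oat was called lower and Prodh was not called. Aldh4a1, the dehydrogenase that turns pyrroline-carboxylate into glutamate, measured 89.0, 98.8 and 81.1 FPKM in transgenic and 52.9, 35.8 and 34.3 FPKM in wild-type mice 1 to 3, a 2.19-fold higher mean (log2 fold change 1.13 ± 0.17, adjusted p = 0.00636). Oat, the ornithine aminotransferase, measured 40.4, 46.6 and 41.0 FPKM in transgenic and 65.3, 58.9 and 60.6 FPKM in wild-type mice 1 to 3 (log2 fold change -0.52 ± 0.09, adjusted p = 0.00927). Neither gene had overlapping groups. Prodh, the proline dehydrogenase that acts before Aldh4a1, was not called (log2 fold change -0.11 ± 0.25, adjusted p = 0.79), and its sign turned to 0.22 (adjusted p = 0.146) without wild-type mouse 1, which was at 24.5 FPKM while the other wild-type mice were at 12.4 and 11.7 FPKM. Aldh4a1 shares 32.5% of its exon bases with the annotated gene Gm21969 on the same strand, so reads from the shared bases cannot be told apart. Gm21969 has no row in the table, and the part of the overlap in the Aldh4a1 values was not tested.

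Both arginine genes were low. Asl, the argininosuccinate lyase, measured 12.7, 15.3 and 13.3 FPKM in transgenic and 18.3, 18.9 and 17.9 FPKM in wild-type mice 1 to 3 (log2 fold change -0.40 ± 0.09, adjusted p = 0.0237). The groups did not overlap, but the call was lost without any 1 of transgenic mice 1 and 3 and wild-type mice 1 to 3. Ass1, the argininosuccinate synthase, lay between 0.836 and 1.26 FPKM in the 6 mice and passed the filter only through its wild-type mean of 1.11 FPKM (log2 fold change -0.12 ± 0.13, adjusted p = 0.54). Ass1 values are uncertain, since 26.9% of the 100-base windows of its transcripts also occur in the annotated gene Gm5424.

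In serine synthesis 2 of 3 genes were called lower, beside 7.03% of all loci tested. Psat1, the phosphoserine aminotransferase and second enzyme of serine synthesis, measured 17.6, 22.5 and 22.5 FPKM in transgenic and 49.3, 42.8 and 41.8 FPKM in wild-type mice 1 to 3, and the mean of transgenic mice was 0.468 times that of wild-type mice (log2 fold change -1.07 ± 0.12, adjusted p = 0.00215). This fall was of the same size as that of Mccc1, and the order of the 2 genes turned under quantile normalization and without wild-type mouse 1. Phgdh, the first enzyme, measured 17.4, 13.2 and 15.3 FPKM in transgenic and 23.0, 20.3 and 21.7 FPKM in wild-type mice 1 to 3 (log2 fold change -0.48 ± 0.11, adjusted p = 0.0252). The groups of both genes did not overlap. The call of Phgdh was lost without transgenic mouse 3 or any 1 wild-type mouse, and 28.1% of the 100-base windows of its transcripts occur in other annotated genes that resemble it. Psph, the phosphatase that completes serine synthesis, was not called (log2 fold change 0.32 ± 0.12, adjusted p = 0.11). Its groups did not overlap either, but in the other direction, with all transgenic values above all wild-type values. About 10.4% of the exon bases of Psph are shared with Cct6a on the opposite strand.

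Serine and glycine are interconverted by the serine hydroxymethyltransferases. Shmt1, the cytosolic form, measured 11.6, 11.3 and 12.5 FPKM in transgenic and 6.11, 4.74 and 5.03 FPKM in wild-type mice 1 to 3, with no overlap and a mean 2.23-fold higher (log2 fold change 1.03 ± 0.10, adjusted p = 0.00139). The deposited locus of Shmt1 is shared with Smcr8, as are 4.7% of its exon bases. Smcr8 was listed between 5.69 and 8.35 FPKM in the 6 mice (log2 fold change -0.09, adjusted p = 0.655). Shmt2, the mitochondrial form, measured 19.0, 20.4 and 19.5 FPKM in transgenic and 19.2, 18.2 and 20.7 FPKM in wild-type mice 1 to 3 (log2 fold change 0.02 ± 0.08, adjusted p = 0.874), a difference whose sign changed with the setting. Asns, the asparagine synthetase, differed by -0.27 ± 0.13 on the log2 scale (adjusted p = 0.189) with overlapping groups.

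Phgdh, Psat1, Shmt2 and Asns are known targets of the transcription factor Atf4 under amino acid shortage, so the promoter windows (250 bases before to 50 after each RefSeq start, both strands) were searched for the amino acid response element in the forms TTGCATCA and TTTCATCA. RefSeq windows were found for 33 of the 37 genes. The element was in the windows of Asns and Got1, and in 1.90% of all 32851 windows. The 30 bases around each element are shown, with the element in capitals, for Asns at chr6:7693214-7693243, where it lies 23 bases before the start and reads as the reverse complement of the second form, and for Got1 at chr19:43524689-43524718, where it lies 102 bases before the start. Both stretches are on the minus strand of GRCm38.p6.
Asns: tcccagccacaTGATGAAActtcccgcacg
Got1: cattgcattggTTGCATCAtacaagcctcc

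Neither of the genes with this element was called. The estrogen-related receptor element AAGGTCA was in the window of Got1 alone, beside 4.72% of all windows, and the E-box CACGTG was in those of Ass1 and Mccc2, beside 7.15%. The cAMP response element TGACGTCA was in none of the members' windows and in 1.79% of all windows, and its absence says only that these letters are not in the window. The transcript of Atf4 itself was not called (log2 fold change 0.15 ± 0.12, adjusted p = 0.409). A search for exact letters and a transcript level do not measure the activity of a factor, and the part of Atf4 in these genes was not tested.

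A list of 23 other amino acid genes was examined as well, of which 22 were in the table and 17 passed the filter. Gcsh and Gcdh were called higher, Gldc was called lower and 14 were not called. These counts of 2 and 1 of 17 lie near the shares over all loci tested, 11.6% called higher and 7.03% called lower. Gldc and Gcsh encode the decarboxylase and the lipoyl carrier of the glycine cleavage system. Gldc measured 0.676, 1.13 and 0.849 FPKM in transgenic and 3.26, 3.23 and 2.64 FPKM in wild-type mice 1 to 3 (log2 fold change -1.10 ± 0.13, adjusted p = 0.00275). It was low in all mice and passed the filter only through its wild-type mean of 3.04 FPKM, beside a transgenic mean of 0.886 FPKM. Gcsh measured 94.9, 77.8 and 75.7 FPKM in transgenic and 47.6, 45.2 and 41.6 FPKM in wild-type mice 1 to 3 (log2 fold change 0.87 ± 0.11, adjusted p = 0.00326). Gcdh, the glutaryl-CoA dehydrogenase of lysine and tryptophan breakdown, differed by 0.53 ± 0.14 on the log2 scale (adjusted p = 0.0449).

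Paired chains and isoenzymes were compared within each mouse, as the log2 ratio of FPKM + 1, over 8 pairs. With 3 against 3 mice the smallest two-sided p of an exact permutation test is 0.1, so no pair could pass the threshold, and after adjustment over the 8 pairs the smallest value was 0.2. The Mccc1 to Mccc2 ratio was 0.575 to 0.681 in transgenic and 1.29 to 1.61 in wild-type mice in FPKM, and the log2 ratio was lower by -1.14 in transgenic mice (exact permutation p = 0.1). The Shmt1 to Shmt2 ratio was 0.556 to 0.643 in transgenic and 0.243 to 0.318 in wild-type mice, a difference of 1.01 (exact permutation p = 0.1). The chains of methylcrotonyl-CoA carboxylase and the compartments of serine hydroxymethyltransferase thus showed the widest separations of the 8 pairs.

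The Bckdha to Bckdhb ratio was 3.18 to 4.65 in transgenic and 2.31 to 3.03 in wild-type mice, a log2 difference of 0.54 (exact permutation p = 0.1). The Pcca to Pccb log2 ratio differed by -0.23 (exact permutation p = 0.1), and it was -0.04 under quantile normalization. In FPKM the Pcca to Pccb ratios of the groups overlapped, as transgenic mouse 2 was at 0.323 and wild-type mouse 2 at 0.322. The groups were apart only as log2 ratios of FPKM + 1, where these mice were at -1.618 and -1.617, and the permutation p rests on that scale. The ratios of Bcat1 to Bcat2, Bckdk to Ppm1k, Got1 to Got2 and Gpt to Gpt2 overlapped between the genotypes, with log2 differences of -0.15, -0.05, 0.12 and 0.09 (exact permutation p = 0.8, 0.9, 0.6 and 0.6). The plot of within-mouse ratios shows the pairs.

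**Figure D4:**
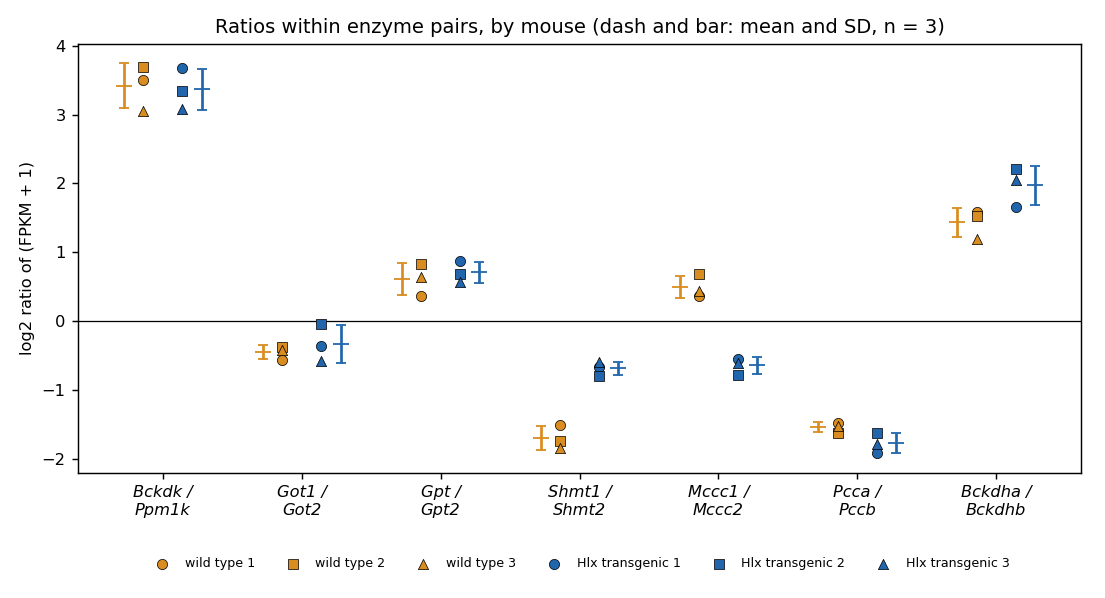
Log2 ratio of FPKM + 1 within each mouse for 7 pairs of chains or isoenzymes, with wild-type mice in orange and transgenic mice in blue. Bcat1 to Bcat2 is left out because Bcat1 is under 1 FPKM. The Mccc1 to Mccc2 ratio is above 0 in every wild-type mouse and below 0 in every transgenic mouse.

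The 16 called genes spanned levels from those of Shmt1 to those of Bckdha. Of the 9 genes over 100 FPKM in the wild-type mean, 7 were branched-chain genes and 2 were others. Among the 20 genes that were not called, 16 had a log2 fold change above 0 and 4 had one below 0, and the 10 uncalled branched-chain genes were all above 0. Under quantile normalization 3 of these 10 were below 0, namely Bcat2, Mccc2 and Aldh6a1. A set of 6 of the 37 genes differed at least 2-fold in mean FPKM, namely Bckdha, Hibch, Aldh4a1 and Shmt1 upward and Mccc1 and Psat1 downward. The plot of all loci places the 36 genes among the loci tested.

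**Figure D5:**
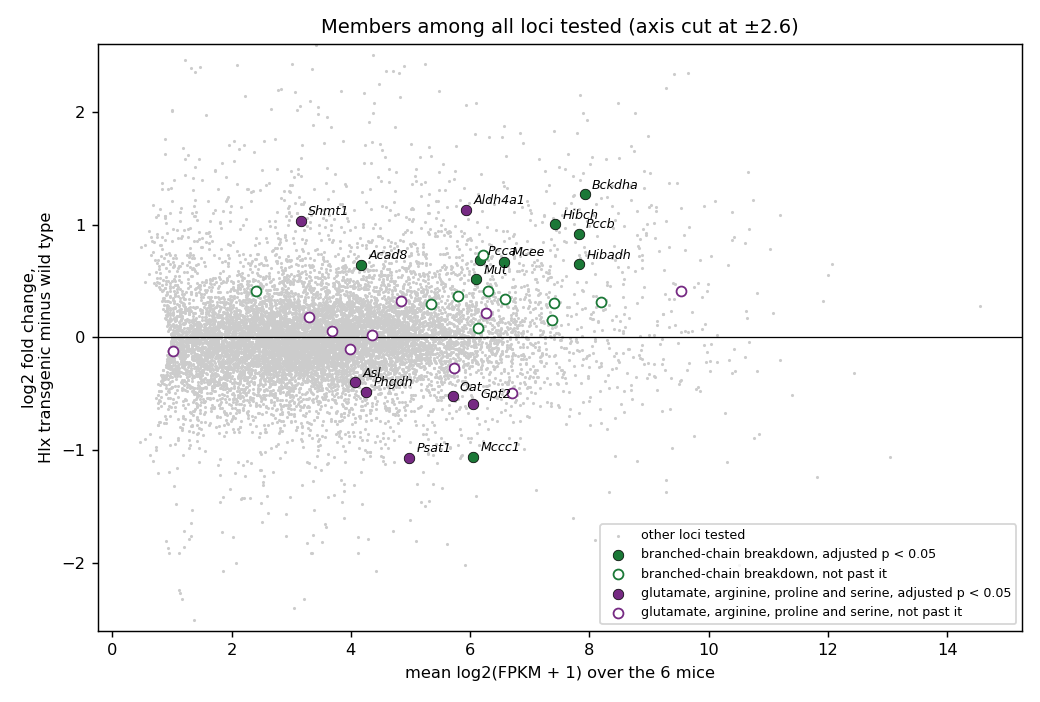
Log2 fold change (transgenic minus wild type) against mean log2(FPKM + 1) for the 11692 loci tested in grey, with branched-chain genes and the other amino acid genes in colour, and 40 loci beyond 2.6 in either direction not drawn. Most branched-chain genes lie at high level and above 0, with Mccc1 below, and the other genes lie on both sides of 0.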

How the data were processed

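The authors extracted RNA with Trizol, prepared libraries with the Illumina TruSeq RNA kit (version 2, which does not mark the strand), mapped single-end reads to mm10 and deposited 1 table of FPKM per gene and mouse. The submitters' processing notes name CASAVA 1.8.2, TopHat2 2.0.9, Bowtie2 2.1.0 and Cufflinks 2.2.1. The gene annotation is not given in the sources used here. FPKM are not counts, so no count test was used, and the depth of each library is unknown. Low values carry more counting error than high ones.

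The members and gene lists were chosen with earlier results of these data known. From the deposited FPKM, log2(FPKM + 1) was fitted in limma 3.58.1 (R 4.3.3; lmFit, eBayes with trend, no covariates, two-sided) over the 11692 of 19445 loci with mean FPKM above 1 in at least 1 genotype, and p-values were adjusted by Benjamini-Hochberg over all of them. The fit was tested on simulated data. Exact permutation tests used the 20 arrangements of 3 against 3 mice. All 37 members are named. FPKM per mouse is given for called members, members of pairs and the 5 most abundant; some members that came near the threshold were given it after their values were seen. Genes of the other lists are named where they are among the 3 largest called changes in a direction. Slc7a5, Atf4, Aass, Abat, Cps1, Otc and Prodh2 of those lists, and the markers Fabp4, Plin1, Adipoq and Cfd, were chosen after their values were seen. Gene positions and exon overlaps come from GENCODE M21 (GRCm38), promoters from RefSeq (GRCm38.p6). Alternatives changed the pseudocount, filter, scaling, trend, weights, block, row choice, threshold and libraries. Python 3.11.15, pandas 2.3.3, scipy 1.17.1 and matplotlib 3.10.9 were used. No sample column was left unmapped.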

Additional observations from a re-analysis of the deposited data

How the results depend on the processing

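Each gene was refitted under 15 alternatives, and 11 of the 16 called genes kept their call and its direction throughout. Hibadh, Mut, Gpt2, Asl and Phgdh lost their call when single mice were left out, and 7 uncalled genes gained one under some alternative. Requiring a 2-fold ratio as well left 4 genes higher and 2 lower of the 37 (2 branched-chain genes higher, 1 other gene lower), 3 of the 14 further branched-chain genes higher and 0 lower, and 0 of the further amino acid genes higher. An adjusted p under 0.01 left 3 of the 37 genes lower, 2 of the other genes lower and 1 of the further amino acid genes higher. That last count was also 1 without the filter on low values and 1 without a trend. The shares of all loci called under these settings, or with 1 mouse left out, are not given here. A drop in a count can therefore not be told apart from fewer calls over all loci. Leaving out 1 mouse gave 3 to 6 of the 37 genes lower, with 3 without transgenic mouse 3, wild-type mouse 1 or wild-type mouse 2, and 2 to 5 of the other genes lower, with 2 without those same mice and 3 without wild-type mouse 3. The further branched-chain genes had 1 to 2 lower (2 without transgenic mouse 1), and the further amino acid genes had 1 to 2 higher (1 without transgenic mouse 3, wild-type mouse 2 or wild-type mouse 3) and 1 to 2 lower (2 without transgenic mouse 2). The median log2 fold change of the other genes ranged from -0.21 without wild-type mouse 2 to 0.015 without wild-type mouse 1, where it changed sign. Under quantile normalization Bcat2 turned to -0.11, Mccc2 to -0.025, Aldh6a1 to -0.013 and Shmt2 to -0.0042, all uncalled, and the Pcca to Pccb ratio difference moved to -0.036. Leaving out 1 mouse, uncalled log2 fold changes spanned 0, with -0.016 (without wild-type mouse 2) to 0.49 for Bcat2, -0.036 (without wild-type mouse 2) to 0.19 for Mccc2, -0.020 (without transgenic mouse 2) to 0.31 for Got1, -0.29 to 0.22 (without wild-type mouse 1) for Prodh and -0.021 to 0.066 for Shmt2. So did 4 of the 8 ratio differences, from -0.50 to 0.075 for Bcat1 to Bcat2, -0.23 to 0.091 for Bckdk to Ppm1k, -0.023 to 0.25 for Got1 to Got2 and -0.027 to 0.20 for Gpt to Gpt2. The cause of these moves was not tested. Same-numbered mice of the genotypes deviated together with correlations of only 0.0129 to 0.0701 over the loci tested, which cannot show whether equal numbers mark pairs. Of the 20 branched-chain genes, mouse 1 was the highest of its genotype for 15 in transgenic and 18 in wild-type mice. With the replicate number as a block, 13 of the 37 genes were higher and 6 lower, 11 and 1 for the branched-chain genes. The share of all loci called with the block is not given here.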

Other observations

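Aass, the first enzyme of lysine breakdown, was at 14.3 FPKM in wild-type mouse 3 and at 0.362 FPKM or less in each of the other 5 mice. Abat, a transaminase that can act near the end of valine breakdown, was between 1.26 and 2.38 FPKM in the 6 mice. Cps1, Otc and Prodh2, of the urea cycle and of hydroxyproline breakdown, were listed at 0 in every mouse.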
